A study of Gallus gallus with 71 samples.

Results

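Transcripts of 4 factors of RNA splicing and translation, HNRNPH1, GEMIN4, LSM12 and EIF4A2, were followed through 3 brain nuclei of heat-challenged broiler chicks. These are the genes of the count table whose Ensembl identifiers the study's tables pair with those symbols: ENSGALG00010014967 (HNRNPH1), ENSGALG00010029763 (GEMIN4), ENSGALG00010024961 (LSM12) and ENSGALG00010016240 (EIF4A2). They are 4 of 30108 genes counted, and all 4 are among the 20363 that had more than 1 CPM (counts relative to the library's size) in 4 or more libraries and were tested. The study had listed HNRNPH1 and EIF4A2 for the difference between conditioned and control chicks in the nCPa at hour 12, and LSM12 and GEMIN4 for the difference between hours 12 and 0 in the nCPa. The values of these 4 pairs of a gene and a comparison are therefore a description, and no test of them is read as a result.

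RNA was sequenced from punches of 3 brain regions, the nCPa at the hippocampal commissure, the POAH (anterior hypothalamus and pre-optic area) and the PVN (paraventricular nucleus), of Hubbard x Cobb-500 chicks on day 4 after hatch. Control eggs were held at 37.5°C until they were moved to a shared hatcher. Eggs given embryonic heat conditioning (EHC) were held at 39.5°C for 12 h per day from embryonic day 7 to 16 and otherwise as the control eggs. Chicks of both treatments were sampled before (hour 0) and 2 and 12 h into a challenge at 36°C. Nucleus, treatment and hour give 18 groups and 71 libraries, with 3 libraries in the EHC PVN group at hour 12 and 4 in all others. Each treatment had its own incubator before the hatcher, and all chicks sampled at hours 2 and 12 had been heated, so that treatment and incubator, and hour of challenge and time of day, cannot be told apart. Several punches came from each chick, which no label identifies, so the p-values measure only the spread between these libraries.

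HNRNPH1 encodes an RNA-binding protein that recognises runs of G in nuclear transcripts and steers the choice of alternative exons. GEMIN4 is a subunit of the SMN complex, which loads the ring of Sm proteins onto the small nuclear RNAs of the spliceosome. LSM12 belongs to the Sm-like protein family and EIF4A2 is a DEAD-box RNA helicase of the cap-binding complex eIF4F, which unwinds the start of an mRNA for the ribosome. Most of what is known of these roles comes from mammalian cells, and neurons make heavy use of both alternative splicing and local translation.

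The libraries held 910033 to 9370799 counts (median 4157783). Mitochondrially encoded mRNAs, summed over 11 genes, made up 5.95%, 4.08% and 6.82% of the counts of control nCPa libraries Sample_125, Sample_143 and Sample_146 at hour 12, 0.919% of the remaining control of that group, Sample_173, and 0.481% to 2.46% of the other 67 libraries. Summed expression of 69 genes read almost only in libraries labelled female went against the sex label in 5 libraries, all of hour 2. These were the EHC libraries Sample_67, Sample_68 and Sample_69, labelled male, and the control libraries Sample_70 and Sample_72, labelled female. The control nCPa library Sample_71, also labelled female, did not. The 69 genes and the cutoff were set by the labels of hours 0 and 12, so agreement at those hours is partly built in. The labels were kept. Whether labels of sex or of treatment were exchanged was not tested, and this bears on every treatment comparison that uses hour 2.

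In RefSeq's annotation of the GRCg7b assembly HNRNPH1 lies on chromosome 13 (13179946 to 13196139), GEMIN4 on chromosome 19 (7414887 to 7422312), LSM12 on chromosome 27 (2690380 to 2696607) and EIF4A2 on chromosome 9 (15898312 to 15905193). Each span overlaps a neighbour: DCK2 for HNRNPH1, FAM57A for GEMIN4, TMEM101 for LSM12, and SENP5 and 3 snoRNA genes for EIF4A2. The libraries were stranded but the strand setting of the counting was not given in the sources used here, so reads of overlapping partners could have been assigned to either gene. RefSeq also lists HNRNPH2 as a synonym of HNRNPH1 and EIF4A1 as a synonym of EIF4A2, and how reads of closely related copies were shared out is uncertain.

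All 4 transcripts were counted in all 71 libraries. Counts ran from 199 to 1857 (median 755) for HNRNPH1, from 20 to 288 (median 113) for GEMIN4, from 14 to 122 (median 53) for LSM12 and from 719 to 4843 (median 2270) for EIF4A2. At the median count, counting error alone gives a coefficient of variation of 3.64% for HNRNPH1, 9.41% for GEMIN4, 13.7% for LSM12 and 2.1% for EIF4A2. The median coefficient of variation between libraries of a group was 8.18%, 9.67%, 19.6% and 9.68% in the same order. The spread of GEMIN4 between libraries was thus close to its counting error, and that of HNRNPH1 and EIF4A2 was larger.

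Ordered by mean level, the 18 groups formed a continuous series for most of their range. For HNRNPH1 the mean ran from 266 ± 57.7 CPM (SD, n = 4) in control nCPa at hour 12 to 123 ± 15.7 CPM (SD, n = 4) in EHC nCPa at hour 12. The other 16 group means of HNRNPH1 lay between 168 and 201 CPM, and of the 17 steps between neighbours only the first and the last exceeded the larger of the 2 SDs. The EIF4A2 mean ran from 673 ± 126.4 CPM (SD, n = 4) in control nCPa at hour 12 to 395 ± 38.2 CPM (SD, n = 4) in EHC nCPa at hour 12, and the last of its 17 steps was the only one over the larger SD. The same nucleus and hour thus held both the highest and the lowest group of these 2 genes. For GEMIN4 the means ran from 24.4 ± 3.43 CPM (SD, n = 4) in EHC nCPa at hour 12 to 35.1 ± 6.32 CPM (SD, n = 4) in control nCPa at hour 0. The LSM12 mean was 9.10 ± 1.44 CPM (SD, n = 3) in EHC PVN at hour 12, the lowest, and 21.4 ± 5.23 CPM (SD, n = 4) in EHC nCPa at hour 12, the highest. No neighbours in the order of GEMIN4 or LSM12 differed by more than the larger SD. The ratio of the highest to the lowest group mean was 2.17 for HNRNPH1, 1.44 for GEMIN4, 2.35 for LSM12 and 1.7 for EIF4A2.

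**Figure D1:**
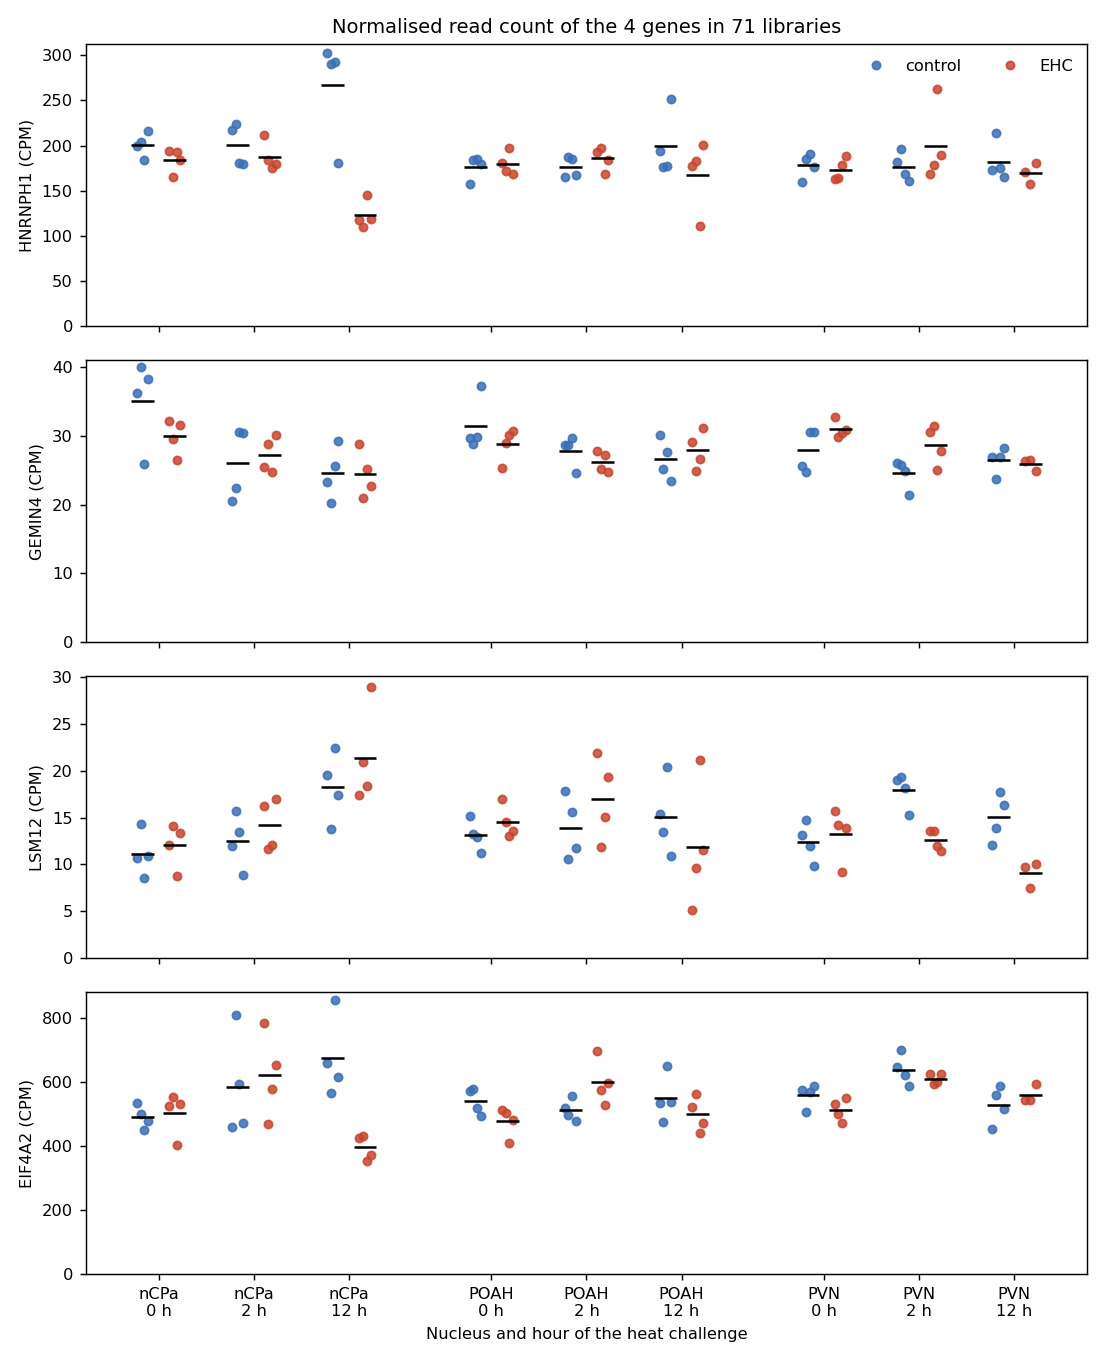
Level of each gene in CPM (y axis, from 0) in every library, by nucleus and hour of the heat challenge (x axis), with control libraries in blue, EHC libraries in red and the group mean as a black line. HNRNPH1 and EIF4A2 separate by treatment in the nCPa at 12 h, where control means are 266 and 673 CPM and EHC means 123 and 395 CPM.

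The 4 genes entered 30 comparisons with edgeR's quasi-likelihood test and Benjamini-Hochberg adjustment over all 20363 genes: 9 of EHC with control chicks, 9 of hours, 6 of treatment by hour, 3 of nuclei and 3 of sexes. Of the 120 pairs of a gene and a comparison, 0 had an adjusted p of at most 0.1. Leaving aside the 4 pairs for which the study had listed the gene, 11 of the others (9.48%) had an unadjusted p under 0.05. For all genes this share was 6.56% over the treatment comparisons, 5.51% over hours and 7.41% over treatment by hour. It was 15.1% to 27.5% in single comparisons of nuclei and sexes, which raise the share over the 30 comparisons to 9.11%. Of the 11, only EIF4A2 in PVN against POAH was in a comparison of nuclei or sexes. DESeq2's Wald test called 5 of the others (4.31%), all of them among those 11 and all in comparisons of hours or of treatment by hour. There it called 0.243% (hours) and 0.753% (treatment by hour) of all genes, against 2.69% over the 30 comparisons. Of these 5, 2 are treatment-by-hour pairs of HNRNPH1 and EIF4A2 that contain the libraries for which both genes were listed, and 1 is LSM12 between hours 12 and 2 in the nCPa, which shares the libraries of hour 12 with its listed comparison. GEMIN4 between hours 2 and 0 in the nCPa, another of the 11, shares the libraries of hour 0 with its listed comparison. The shares of 9.48% and 4.31% are therefore not independent of the listing. In the nCPa at hour 12 DESeq2 called 1.65% of all genes and edgeR with all nCPa libraries in 1 model 1.92%. The listed HNRNPH1 and EIF4A2 are among both, which restates their listing. For the treatment comparisons edgeR called 0.00491% of all genes in the nCPa at hour 12, 0.25% in the PVN at hour 12 and 0% in the other 7.

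HNRNPH1 was higher in control than in EHC chicks in the nCPa at hour 12. Its level was 303 CPM in Sample_125, 290.4 CPM in Sample_143, 292 CPM in Sample_146 and 180.3 CPM in Sample_173, the 4 control libraries. In the EHC libraries it was 109.5 CPM in Sample_158, 145.6 CPM in Sample_161, 118.2 CPM in Sample_176 and the same, to within 1 CPM, in Sample_149. Every EHC library lay below every control library, as was the case for 3.92% of all genes tested, and 3 of the 4 controls were above every other library of the series. The log2 fold change (EHC against control) was -1.12 (SE 0.18), in the comparison for which HNRNPH1 was listed.

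The 3 high controls were the 3 libraries rich in mitochondrial mRNA, with a mean of 295 ± 6.65 CPM (SD, n = 3). Sample_173, at 0.919% mitochondrial mRNA, lay within the 63 libraries of the other 16 groups, which had a median of 181 CPM. Leaving the mitochondrial mRNAs out of the counts, an alternative chosen after seeing the data, left the log2 fold change at -1.12. Leaving out the 3 libraries, also chosen after seeing the data, gave -0.66, with Sample_173 as the only control. The control libraries held 4681626 to 5130983 counts and the EHC libraries 1956211 to 3401717. The parts of mitochondrial RNA and depth in the difference were not tested. In these bulk punches, fewer cells of a type and less RNA per cell cannot be told apart.

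The EHC libraries were also low against the rest of the series. At 109.5 to 145.6 CPM, all 4 were below every library outside this nucleus and hour except Sample_160, an EHC library of the POAH at hour 12 that held 111 CPM. The next lowest held 157.5 CPM. In the POAH at hour 12 the control libraries were at 194, 176.3, 177.3 and 252 CPM and the EHC libraries at 176.8, 183, 111 and 200.4 CPM. These groups overlapped (EHC below control in 1.59% of genes, above in 1.36%), and EHC differed from control by -0.27 on the log2 scale (SE 0.18, adjusted p = 0.89 in edgeR). The POAH and PVN libraries numbered next to the 3 high nCPa controls (Sample_124, Sample_126, Sample_142, Sample_144, Sample_145 and Sample_147) held HNRNPH1 at 173.1 to 214 CPM and mitochondrial mRNA at 0.753% to 1.37%, within the range of the remaining libraries.

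**Figure D2:**
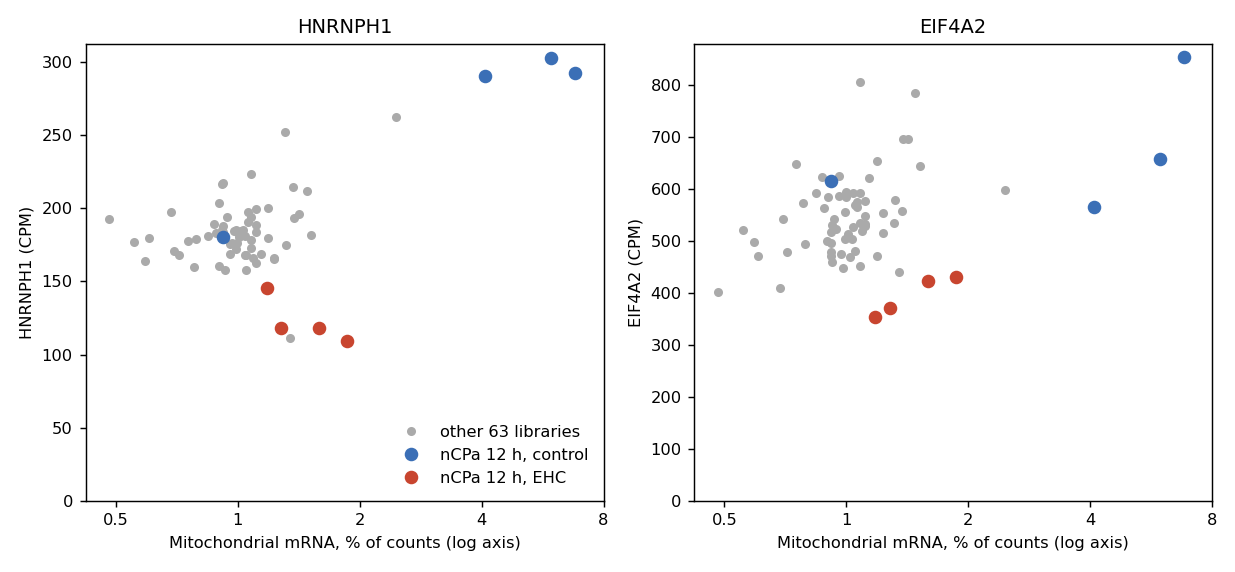
HNRNPH1 (left) and EIF4A2 (right) in CPM (y axes, from 0) against the share of counts in 11 mitochondrial mRNAs (x axes, %, log axis) for 71 libraries, with nCPa hour 12 controls in blue, nCPa hour 12 EHC libraries in red and the other 63 libraries in grey. The 3 controls at 4.08% to 6.82% hold HNRNPH1 at 290.4 to 303 CPM, and the 4 EHC libraries lie at the low end of both genes at 1.18% to 1.86%.

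In the other 8 treatment comparisons the log2 fold change of HNRNPH1 ran from -0.27 to 0.18, and no adjusted p was under 0.84 in edgeR. Over both treatments, hours of the challenge differed by log2 fold changes of -0.10 to 0.11 in 9 comparisons, with a smallest adjusted p of 0.90 in edgeR. In nCPa control chicks the group means were 201, 200.2 and 266 CPM at hours 0, 2 and 12, and in EHC chicks 184, 188 and 123 CPM. The higher control mean at hour 12 came from the 3 libraries rich in mitochondrial mRNA, and the fourth control, Sample_173 at 180.3 CPM, was below the control mean of hour 0. The difference between these changes (treatment by hour, 12 against 0) was -0.98 on the log2 scale (SE 0.21, adjusted p = 0.21 in edgeR, which called 0.0442% of genes). It contains the 8 libraries for which HNRNPH1 was listed and is not independent of that choice. Without the 3 libraries rich in mitochondrial mRNA it was -0.48, with 1 control library left at hour 12. Without Sample_173 it was -1.12 (adjusted p = 0.017), and 0.3% of genes were then called. Over the alternatives that kept at least 3 controls at hour 12 its adjusted p ran from 0.0063 to 0.40.

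GEMIN4 was highest before the heat challenge. In the nCPa the lowest, median and highest of 8 libraries were 25.9, 31.9 and 40.01 CPM at hour 0, 20.5, 27.1 and 30.5 CPM at hour 2, and 20.2, 24.3 and 29.2 CPM at hour 12. The ranges overlapped (0.0147% of all genes were lower in every library of hour 2 than of hour 0, and 0.0786% in every library of hour 12), and the lower level after hour 0 was present in the means of control chicks (35.1, 25.98 and 24.6 CPM) and of EHC chicks (29.9, 27.3 and 24.4 CPM). Hour 2 differed from hour 0 by -0.28 on the log2 scale (SE 0.12, adjusted p = 0.79 in edgeR, which called 0% of genes). Between hours 12 and 0, the comparison for which GEMIN4 was listed, it was -0.40 (SE 0.12), and edgeR called 0.0246% of all genes there. Without the 3 libraries rich in mitochondrial mRNA the latter was -0.35. Both comparisons rest on the same 8 libraries of hour 0, so that of hours 2 and 0 is not independent of the listing.

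Hour 0 also had the highest mean of GEMIN4 in the POAH and the PVN. In the POAH the means at hours 0, 2 and 12 were 30.1 ± 3.31, 27.03 ± 1.97 and 27.3 ± 2.71 CPM (SD, n = 8 each), and in the PVN 29.4 ± 2.75 (n = 8), 26.6 ± 3.23 (n = 8) and 26.2 ± 1.45 CPM (n = 7). The log2 fold changes against hour 0 were -0.16 (SE 0.09) and -0.15 (SE 0.10) in the POAH and -0.13 (SE 0.11) and -0.17 (SE 0.09) in the PVN, with adjusted p of 0.89 to 1.0 in edgeR. These differences were of the size of the spread between libraries. Whether the nCPa differed from the other nuclei in this was not tested. By the study's methods the nuclei were taken from the same chicks, and hours 2 and 12 share the libraries of hour 0. The lower values in the POAH and the PVN are therefore not independent repeats of that in the nCPa.

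The treatment differences of GEMIN4 were small. Its 9 log2 fold changes of treatment ran from -0.23 to 0.24 with SEs of 0.14 to 0.20, and the smallest adjusted p was 0.82 in edgeR. In the nCPa at hour 12 the 4 controls were at 23.3, 20.2, 25.7 and 29.2 CPM and the 4 EHC libraries at 28.8, 20.9, 25.2 and 22.7 CPM. The log2 fold change there was -0.02 (SE 0.20), in the same libraries in which HNRNPH1 and EIF4A2 did not overlap.

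LSM12, the transcript with the fewest counts, was highest in the nCPa at hour 12. The lowest, median and highest of 8 nCPa libraries were 8.56, 11.5 and 14.3 CPM at hour 0, 8.91, 12.8 and 16.97 CPM at hour 2, and 13.8, 18.95 and 28.9 CPM at hour 12. At hour 12, all but Sample_143, the lowest, were above every library of hour 0. LSM12 is thus not among the 0.054% of all genes that were higher in every library of hour 12. The share of genes with as small an overlap was not computed. The log2 fold change between hours 12 and 0 was 0.78 (SE 0.14), in the comparison for which LSM12 was listed, and between hours 12 and 2 it was 0.60 (SE 0.16, adjusted p = 0.39 in edgeR, which called 0% of genes). Both comparisons rest on the same libraries of hour 12.

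The higher LSM12 was present in both treatments, with nCPa means at hours 0, 2 and 12 of 11.1, 12.5 and 18.3 CPM in control chicks and 12.1, 14.3 and 21.4 CPM in EHC chicks. Treatment by hour (12 against 0) was 0.09 (SE 0.29, adjusted p = 0.94 in edgeR). Without the 3 libraries rich in mitochondrial mRNA the log2 fold change of hours 12 and 0 was 0.80. In the POAH it was -0.08 (SE 0.22) and in the PVN -0.06 (SE 0.19). The difference between nuclei was not tested. Log2 LSM12 correlated with depth at r = -0.31 over the 71 libraries. This was -0.32 over the 63 outside the nCPa at hour 12 and -0.13 with group means removed. The EHC nCPa libraries held 2902012 to 9370799 counts at hour 0 and 1956211 to 3401717 at hour 12. The control nCPa libraries held 2541480 to 7161678 at hour 0 and 4681626 to 5130983 at hour 12. Mitochondrial mRNA correlated with LSM12 at r = 0.48 over the 71 libraries and 0.47 over the 63. It made up 0.481% to 1.23% of EHC nCPa counts at hour 0 and 1.18% to 1.86% at hour 12. In control nCPa it was 0.898% to 1.11% at hour 0 and 0.919% to 6.82% at hour 12. Leaving out the 3 libraries keeps the EHC libraries of hour 12. The parts of depth and mitochondrial RNA were not tested.

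**Figure D3:**
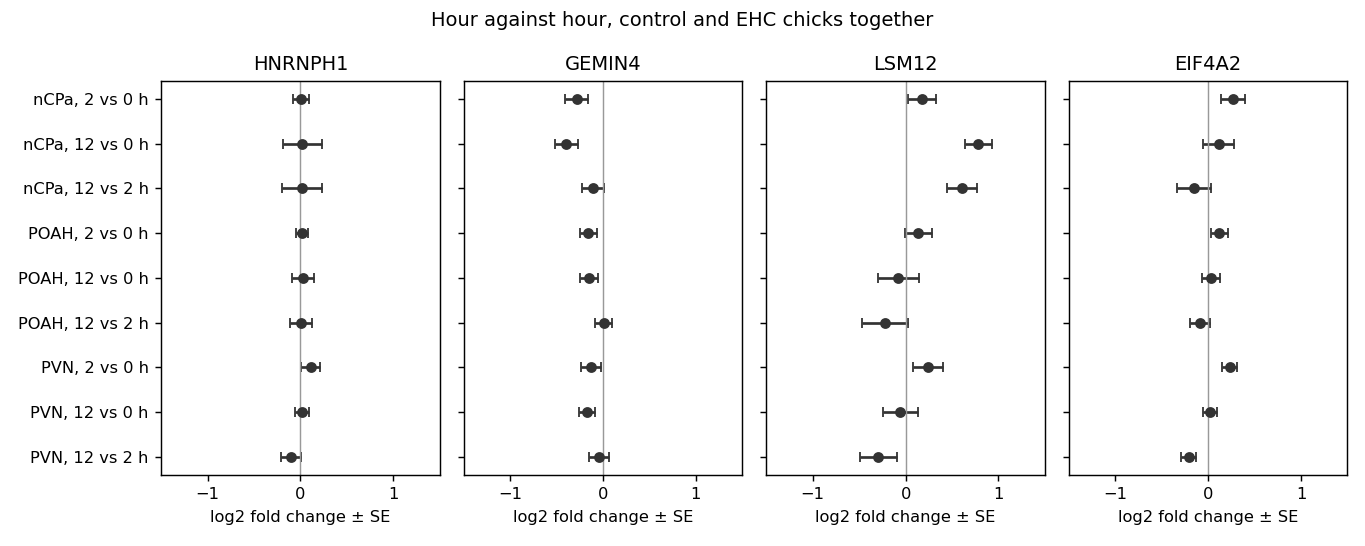
Log2 fold change between hours of the heat challenge, control and EHC chicks together (x axes, log2 fold change; points are edgeR estimates and bars ± 1 SE), for each nucleus and pair of hours. LSM12 in the nCPa at 12 h against 0 h lies farthest from 0, at 0.78, and GEMIN4 lies below 0 at 2 h and 12 h against 0 h in all 3 nuclei. The nuclei share chicks, and differences against 0 h share the libraries of 0 h.

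In the PVN, LSM12 was lower in EHC than in control chicks at hours 2 and 12. At hour 2 the control libraries were at 19.0, 19.4, 18.2 and 15.3 CPM and the EHC libraries at 13.6, 13.6, 12.0 and 11.5 CPM. Every EHC library was below every control, as in 1.62% of all genes, with a difference of -0.48 on the log2 scale (SE 0.23, adjusted p = 0.80 in edgeR). At hour 12 the controls were at 12.1, 13.9, 17.7 and 16.4 CPM and the 3 EHC libraries at 9.75, 7.45 and 10.1 CPM. The groups again did not overlap, as in 4.5% of all genes, with a difference of -0.70 on the log2 scale (SE 0.22, adjusted p = 0.42 in edgeR). Neither difference passed the adjusted threshold. At hour 2, the EHC library Sample_69 (13.6 CPM) and the control library Sample_72 (19.4 CPM) are among the 5 that went against their sex label. Without both, the difference at hour 2 was -0.43 (SE 0.28, adjusted p = 0.54 in edgeR). With the treatment labels of these 2 exchanged the groups would overlap, and whether any label was exchanged was not tested. EHC libraries held 1625338 to 6277932 counts at hour 2 and control libraries 1386051 to 2764458, and the part of depth was not tested. Mitochondrial mRNA, with which LSM12 correlated at r = 0.48 over the 71 libraries, also separated the groups at hour 12. It made up 0.697% to 0.931% of EHC and 0.96% to 1.37% of control counts there. At hour 2 the ranges overlapped (0.872% to 2.46% and 0.899% to 1.52%). The part of mitochondrial RNA was not tested.

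Before the challenge the PVN groups overlapped (controls 9.81 to 14.7 CPM, EHC 9.21 to 15.7 CPM, with 0.899% of genes lower and 1.32% higher in every EHC library), and the log2 fold change of LSM12 was 0.08 (SE 0.23, adjusted p = 0.98 in edgeR). The change in the treatment difference was -0.56 (SE 0.30, adjusted p = 0.91) from hour 0 to 2 and -0.80 (SE 0.31, adjusted p = 0.35) from hour 0 to 12 in edgeR, which called 0% and 0.417% of all genes. In the nCPa the treatment difference of LSM12 was positive at all 3 hours, 0.13 (SE 0.20), 0.23 (SE 0.27) and 0.21 (SE 0.23), and in the POAH it was 0.15 (SE 0.19), 0.33 (SE 0.23) and -0.33 (SE 0.39). None of these 6 passed. The POAH at hour 12 held the widest spread of any group, with EHC libraries at 5.19, 9.62, 21.2 and 11.5 CPM, of which the highest was Sample_160, the library with the lowest HNRNPH1 of the POAH.

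**Figure D4:**
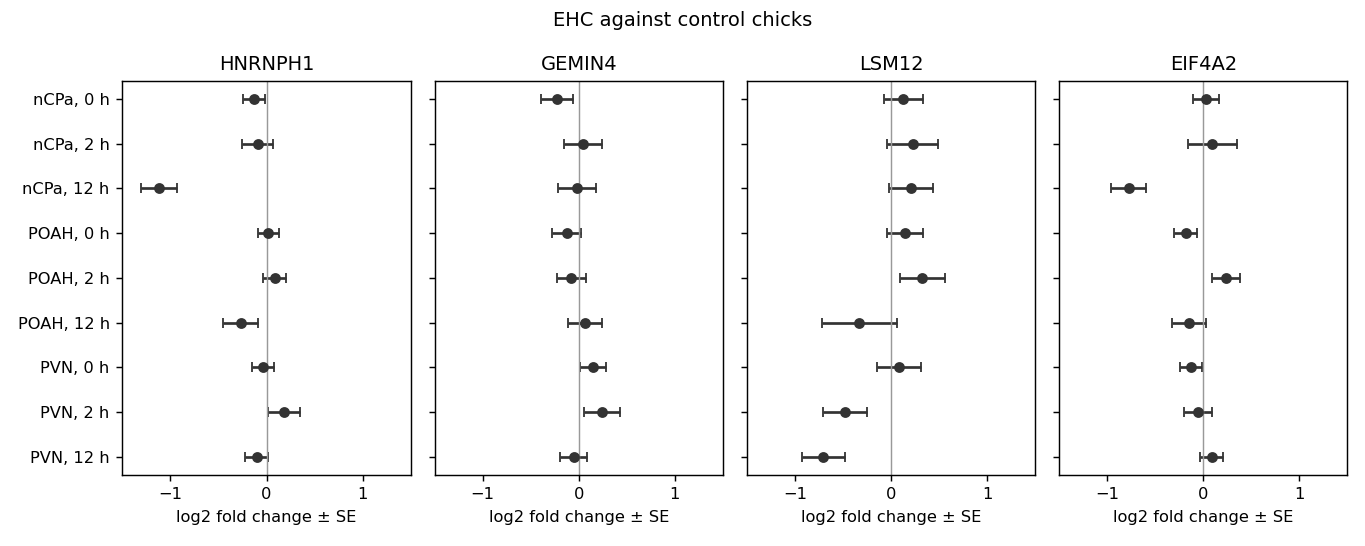
Log2 fold change of EHC against control chicks (x axes, log2 fold change; points are edgeR estimates and bars ± 1 SE) for each nucleus and hour. The nCPa at 12 h lies at -1.12 for HNRNPH1 and -0.77 for EIF4A2, and LSM12 in the PVN lies at 0.08, -0.48 and -0.70 at 0, 2 and 12 h.

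EIF4A2, like HNRNPH1, was lower in EHC than in control chicks in the nCPa at hour 12. The control libraries Sample_125, Sample_143, Sample_146 and Sample_173 held 658, 566, 855 and 615 CPM, and the EHC libraries Sample_149, Sample_158, Sample_161 and Sample_176 held 424, 431, 354 and 372 CPM. All 4 controls, Sample_173 included, were above the 4 EHC libraries, as in 3.92% of all genes. The log2 fold change was -0.77 (SE 0.18), in the comparison for which EIF4A2 was listed. Without the 3 libraries rich in mitochondrial mRNA it was -0.61, with 1 control library. Depth also separated the groups, at 1956211 to 3401717 counts in EHC and 4681626 to 5130983 in control libraries. The parts of depth and mitochondrial RNA in the difference were not tested. Of the 63 libraries outside this nucleus and hour the lowest held 403 CPM (Sample_29, EHC nCPa at hour 0) and the median was 536 CPM.

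In the other 8 comparisons of treatment EIF4A2 had log2 fold changes of -0.18 to 0.24, and no adjusted p was under 0.75 in edgeR. Treatment by hour (12 against 0) in the nCPa was -0.80 (SE 0.22, adjusted p = 0.27 in edgeR), with the same 8 libraries at hour 12 in it. In the POAH, treatment by hour (2 against 0) was 0.39 (SE 0.16, adjusted p = 1.0 in edgeR, which called 0% of genes). There the control libraries were at 570, 578, 518 and 494 CPM at hour 0 and 519, 496, 557 and 478 CPM at hour 2, and the EHC libraries at 513, 503, 410.4 and 481 CPM at hour 0 and 696, 575, 526 and 595 CPM at hour 2. The control groups overlapped, and every EHC library of hour 2 was above every EHC library of hour 0, as in 0.923% of genes. The highest of them, Sample_67, was 1 of the 5 that went against their sex label, as was the control library Sample_70 (496 CPM at hour 2). Without those libraries the estimate was 0.32. With the treatment labels of Sample_67 and Sample_70 exchanged, the EHC libraries of hours 0 and 2 would overlap. Whether any label was exchanged was not tested. Depth also separated these groups. The EHC libraries held 3703937 to 5048039 counts at hour 0 and 1370531 to 3173834 at hour 2. The control libraries held 3270657 to 4020187 at hour 0 and 4888023 to 6099027 at hour 2. The part of depth in this estimate was not tested.

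EIF4A2 was higher at hour 2 than before the challenge in the PVN and the nCPa, but edgeR called it in neither. In the PVN the lowest, median and highest were 471, 540 and 586 CPM at hour 0 (n = 8), 585, 622 and 697 CPM at hour 2 (n = 8) and 452, 543 and 592 CPM at hour 12 (n = 7). Hours 0 and 2 overlapped only in Sample_60 and Sample_120. EIF4A2 is thus not among the 0.00982% of all genes that were higher in every library of hour 2. The share of genes with as small an overlap was not computed. EIF4A2 differed by 0.23 on the log2 scale (SE 0.08, adjusted p = 0.75 in edgeR) from hour 0 to 2 and -0.21 (SE 0.08, adjusted p = 1.0 in edgeR) from hour 2 to 12, and edgeR called 0% of genes in both. DESeq2's Wald test called EIF4A2 in both, with adjusted p of 0.069 and 0.067, among 0.255% and 0.162% of all genes. Over all alternatives the adjusted p ran from 0.069 to 0.86 for hours 0 and 2 and from 0.067 to 1.0 for hours 2 and 12. Both treatments had their highest PVN mean at hour 2, at 637 CPM in control and 609 CPM in EHC chicks.

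The 4 control PVN libraries of hour 2 were shallow, at 1386051 to 2764458 counts, and log2 EIF4A2 correlated with depth at r = -0.30 over the 71 libraries, -0.53 over the 63 outside the nCPa at hour 12 and -0.37 with group means removed, a description over libraries that share chicks and composition. The part of depth in the difference was not tested. In the nCPa the lowest, median and highest EIF4A2 were 403, 512 and 553 CPM at hour 0 and 459, 586 and 807 CPM at hour 2, a difference of 0.27 on the log2 scale (SE 0.13, adjusted p = 0.79 in edgeR). The highest 2 of these are Sample_71 at 807 CPM and Sample_68 at 784 CPM. Sample_71 is the shallowest library of the series, and Sample_68 went against its sex label. Without Sample_68, the only nCPa library against its sex label, the difference was 0.21, which still includes Sample_71. In the POAH the log2 fold change from hour 0 to 2 was 0.12 (SE 0.09, adjusted p = 1.0 in edgeR).

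No difference between nuclei was called for the 4 transcripts. The share of all genes called by edgeR was 5.33% between POAH and nCPa, 19.5% between PVN and nCPa and 9.99% between PVN and POAH, and 0 of the 4 were called in each by edgeR or DESeq2. At such shares, 0 of 4 does not set these genes apart from others. Their 12 log2 fold changes ran from -0.11 to 0.09. The only one with an unadjusted p under 0.05 was EIF4A2 in PVN against POAH, at 0.09 (SE 0.04, adjusted p = 0.19 in edgeR), with means of 568 ± 57.3 CPM (SD, n = 23) in the PVN and 529 ± 63.01 CPM (SD, n = 24) in the POAH. Between female and male libraries edgeR called 3.21% (nCPa), 8.08% (POAH) and 4.42% (PVN) of genes, and 0 of the 4, with 0 at an unadjusted p under 0.05 and 0 called by DESeq2. The call of 0 of 4 does not set them apart here either. The farthest from 0 was LSM12 in the nCPa, with 13.8 ± 4.41 CPM (SD, n = 12) in females and 16.1 ± 5.09 CPM (SD, n = 12) in males, and females differed from males by -0.24 on the log2 scale (SE 0.12, adjusted p = 0.32 in edgeR). The comparisons of sexes used the labels as given, which 5 libraries spread over all 3 nuclei went against.

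Across the 71 libraries the 4 transcripts did not vary as 1 group. On log2 CPM the highest correlation among them was that of HNRNPH1 and EIF4A2, at r = 0.49, which was 0.20 over the 63 libraries outside the nCPa at hour 12 and 0.17 after the mean of each group was removed. LSM12 and EIF4A2 had r = 0.20 over all libraries, 0.41 over the 63 and 0.40 with group means removed. HNRNPH1 and LSM12 went the other way, at r = -0.18, and GEMIN4 had r between -0.24 and -0.05 with the other 3. Over the 71 libraries the share of mitochondrial mRNA correlated with LSM12 at r = 0.48, HNRNPH1 at 0.42, EIF4A2 at 0.37 and GEMIN4 at -0.34. Over the 63 these were 0.47, 0.24, 0.44 and -0.16. These are descriptions over libraries that share chicks, depth and base composition.

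Among 81 other genes with a symbol in the study's tables and a mean of at least 10 CPM, the profile most like HNRNPH1 over 71 libraries was that of NDUFB9 (r = 0.66), a subunit of respiratory complex I, followed by GNAI1 (r = 0.59), an inhibitory G protein subunit, and ND6 (r = 0.59), a mitochondrially encoded subunit of complex I. For GEMIN4 they were PLEKHH3 (r = 0.53), TMEM132A (r = 0.49) and PSMD3 (r = 0.44), a subunit of the proteasome's regulatory particle. LSM12 was most like RASL10B (r = 0.66), CAPZB (r = 0.62), which caps actin filaments, and COX2 (r = 0.61), a mitochondrially encoded subunit of cytochrome c oxidase. EIF4A2 had the closest neighbours, ATP6V1G1 (r = 0.81) and ATP6V1C1 (r = 0.76), subunits of the vacuolar proton pump, and SCG5 (r = 0.70), a secretory granule protein. With group means removed, r was 0.63 for HNRNPH1 and NDUFB9, 0.29 for GEMIN4 and PLEKHH3, 0.71 for LSM12 and RASL10B and 0.72 for EIF4A2 and ATP6V1G1. For the next genes named it was 0.35 and 0.43 (HNRNPH1), 0.36 and 0.16 (GEMIN4), 0.60 and 0.49 (LSM12) and 0.68 and 0.59 (EIF4A2). The candidates are genes the study listed as differing, some in the same comparisons as these factors. Alike profiles were thus partly selected in advance.

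The study's tables hold other genes of RNA handling, of which these 7 were followed: INTS11 (the Integrator nuclease), CNOT4 (a ubiquitin ligase that acts with the CCR4-NOT deadenylase), G3BP1 and UBAP2L (stress granule proteins), CAPRIN2 (RNA-binding), WDR18 (ribosome assembly) and FAM46A (a poly(A) polymerase). In the treatment, hour and treatment-by-hour comparisons edgeR called 0 of the 7 in either direction. Of the 63 pairs of a gene and a comparison of treatment 8 had an unadjusted p under 0.05 (6.56% of all genes) and DESeq2 called 3 (0.714% of all genes). Of the 63 pairs of hours these counts were 11 (5.51% of all genes) and 7 (0.243%). Of 42 pairs of treatment by hour they were 9 (7.41% of all genes) and 0 (0.753%). The study had listed each of the 7 for 1 of these comparisons, so their counts are not independent of that choice. In the nCPa at hour 12, 6 of the 7 had a lower level in EHC chicks and 1 a higher level. Their adjusted p ran from 0.47 to 0.905 in edgeR. Their median was -0.33 on the log2 scale, against -0.01 for all genes. The share of all genes with a lower level was not counted. The controls there include the 3 libraries rich in mitochondrial mRNA, and the part of mitochondrial RNA was not tested. Of the 4 factors, HNRNPH1 (-1.12) and EIF4A2 (-0.77) were listed for this comparison, and GEMIN4 and LSM12 were at -0.02 and 0.21. Between PVN and nCPa edgeR called 19.5% of all genes. Of the 7, 2 were higher and 1 was lower in the PVN: CAPRIN2 at 0.70 (adjusted p = 0.00056 in edgeR), FAM46A at 0.39 (adjusted p = 0.054) and UBAP2L at -0.24 (adjusted p = 0.043). CAPRIN2 was also higher in the PVN than in the POAH, at 0.42 (adjusted p = 0.040 in edgeR, which called 9.99% of all genes). It was lower in female than in male POAH, at -0.41 (adjusted p = 0.087 in edgeR, which called 8.08% of all genes).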

How the data were processed

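RNA of 71 chick brain punches was sequenced from stranded, ribosome-depleted libraries. Per the study's methods and the labels, the authors trimmed reads with Trimmomatic 0.39, aligned them with HISAT2, kept unique pairs with SAMtools 1.10, removed duplicates, and assigned pairs to Ensembl genes (release 110) with featureCounts. The authors deposited raw counts, whole numbers for every gene with no normalization. Totals ran from 910033 to 9370799 per library. Duplicate removal without molecular identifiers caps the counts of abundant transcripts.

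Groups, sexes and hours came from the labels. Genes with more than 1 CPM in at least 4 libraries were kept, counts were scaled by TMM, and edgeR 4.0.16 under R 4.3.3 (quasi-likelihood test) was run on the libraries compared, with sex as a covariate. Genes were called up to an adjusted p of 0.1 (Benjamini-Hochberg). Comparisons of nuclei and sexes had treatment and hour as a term. CPM values use 1 TMM scaling over the 71 libraries, and correlations use log2 CPM with a prior count of 2. The model was tested on simulated data with known changes. Figures were drawn with matplotlib 3.10.9.

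Alternatives were DESeq2 1.42.0, its size factors, no filter, a joint model of each nucleus, no sex term, treatment as a covariate, joint calls with an absolute log2 fold change over 1, a replicate block of library numbers for nuclei, and each library left out. Mitochondrial mRNAs left out, the 3 libraries rich in them left out and the libraries against their sex label left out were added after seeing the data.

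The 4 genes are always named, each comparison with an unadjusted p under 0.05 gets its own sentence, and the 3 most alike profiles are given per gene. Genes and lists were chosen with earlier results of these data known. Symbols come from the study's tables (93 genes). Further gene lists and cell type markers were not used here, since the reference table pairs no Ensembl identifiers with symbols.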

Additional observations from a re-analysis of the deposited data

Results flagged for a closer look

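In groups of 4 libraries, a library was singled out where its gap to the nearest, as a share of the group's range, exceeded Dixon's critical value at the 95% level, which chance gives in about 1 of 20 groups. Of 68 groups of a gene tested, 2 had such a library. HNRNPH1 in Sample_173, a control nCPa library of hour 12, was at 180.3 CPM, below the other 3 controls at 290.4 to 303 CPM. GEMIN4 in Sample_40, a control POAH library of hour 0, was at 37.2 CPM, above the other 3 at 28.8 to 29.8 CPM.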

How the results depend on the processing

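Under 30 comparisons and their alternatives the count of the 4 genes called was recomputed 392 times. It stayed at 0 in 380 and rose in 12, in 6 comparisons, of which 4 hold the nCPa libraries of hour 12. The 380 include the joint calls with an absolute log2 fold change over 1, made in the 9 comparisons of treatment and 9 of hours. These require a call in the main fit, which had 0, so they could only stay at 0. In the nCPa at hour 12, EHC against control, DESeq2 and the model with all nCPa libraries each called 2 (HNRNPH1 and EIF4A2, with 1.65% and 1.92% of all genes called), and no filter on low counts called 1 (HNRNPH1, with 1.05%). Leaving out 1 library gave 0 to 1 there, the 1 being HNRNPH1 without control Sample_173 (0.697% of genes). For treatment by hour (12 against 0) in the nCPa DESeq2 called 2 (the same genes, 1.75%), all nCPa libraries in 1 model called 1 (HNRNPH1, 0.0982%), and leaving out 1 library gave 0 to 1 (HNRNPH1 without Sample_173). Between hours 12 and 0 in the nCPa, DESeq2 called 1 and the model with all nCPa libraries called 1 (LSM12, 1.03% and 0.442%). The study had listed HNRNPH1 and EIF4A2 for EHC against control in the nCPa at hour 12 and LSM12 for hours 12 against 0, so these calls restate that choice, and treatment by hour holds the same libraries. DESeq2 called 1 between hours 12 and 2 in the nCPa (LSM12, 0.697%), 1 between hours 2 and 0 in the PVN and 1 between hours 12 and 2 in the PVN (EIF4A2 in both). The cause of these differences between settings was not tested. Of 197 recomputed log2 fold changes of 15 pairs of a gene and a comparison, the 4 listed ones included, 15 newly passed the threshold and 0 changed direction. No pair had passed in the main fit, so none could lose the threshold. The pairs were picked by listing or by an unadjusted p under 0.05 in the main fit. In refits of largely the same libraries, a change of direction was therefore unlikely from the start. The replicate block of library numbers left the call of all 4 genes at 0 in the 3 comparisons of nuclei (EIF4A2 in PVN against POAH 0.09, adjusted p = 0.19).

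At 14 to 122 counts per library LSM12 is limited by depth, and a difference of the size of its counting error could not have been detected. Levels cannot be compared between the genes, since no transcript lengths were used. The chick, the cells of each punch and the strand setting of the counting are unknown. Several comparisons share libraries, those of the nCPa at hour 12 above all.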
